A study of Mus musculus with 6 samples.

Results

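Interferon-stimulated genes encode proteins that block viruses inside the cell, and 10 of them, antiviral effectors of the IFIT, MX and ISG type, were followed here in macrophages. They were *Ifit1*, *Ifit2*, *Ifit3*, *Mx1*, *Mx2*, *Rsad2*, *Isg15*, *Isg20*, *Bst2* and *Ifitm3*. A spot was taken when the gene name in the scanner file equalled one of these symbols and the spot was not a control. This gave 12 probes of 55681 on the array, for 10 genes of 34844 gene names. *Isg15* and *Isg20* had 2 probes each, and the *Ifitm3* probe was printed on 10 spots. For a gene with several probes, values are given for the probe with the highest mean signal (the lead probe) unless the other is named.

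In macrophages, LPS, a bacterial cell wall component, binds TLR4, and the adaptors TRIF and TRAM carry the signal to the kinase TBK1 and the transcription factor IRF3. IRF3 turns on interferon β, which is secreted, binds its receptor IFNAR and activates JAK1 and TYK2. These kinases lead to the assembly of ISGF3, a complex with STAT2 and IRF9 that binds the interferon-stimulated response element (ISRE) of the antiviral genes. Several of the same genes can also be turned on by IRF3 directly.

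The samples were bone marrow-derived macrophages (BMDMs) of wild type female C57BL/6 mice, aged 6 to 8 weeks in the labels (the methods of the study give another range), grown for 7 days in medium conditioned by L929 cells. One group was left untreated, another received LPS for 4 h, and the last (LPS+USP7i) received 10 μM HBX41,108, a small molecule inhibitor of the deubiquitinase USP7, for 30 min before LPS. Each group was measured on 2 arrays. The LPS dose is 100 ng/ml in the series text, whereas the sample labels give the same figure per microlitre. The sources used here do not say whether cells given LPS alone also received the solvent of HBX41,108. The 2 samples of a group are said to come from independent experiments, and p-values measure only the spread between these samples. All arrays lay on the same slide, with each position given by 2 numbers. The first differed between replicate numbers and the second between treatments. The second position number and treatment thus cannot be told apart, nor the first position number and replicate number. Processed signals had a 75th percentile of 325 and 458 on the untreated arrays, 241 and 288 on the LPS arrays and 233 and 268 on the LPS+USP7i arrays.

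The macrophage label was checked against marker genes. All 9 macrophage markers were well above background on every array, among them *Csf1r*, the receptor for the growth factor of this lineage. Their summed signal on the log2 scale was 19.45 and 19.38 without treatment, 19.15 and 19.16 after LPS and 19.16 and 18.99 after LPS+USP7i. Among them *Fcgr1*, an Fc receptor that interferon also induces, was lower in LPS+USP7i than in LPS by limma (log2 difference -1.60, SE 0.22, adjusted p = 0.0317). Of the 9 markers, 6 had lower means with the inhibitor than with LPS alone, 5 of them without overlap and 4 at an unadjusted p under 0.05, where all gene names gave 49.8%, 25.3% and 11.7%. The other 3 had higher means, 2 of them without overlap (9339 of 34844 gene names) and 1 at an unadjusted p under 0.05 (14.3%). The median log2 difference of the 9 was -0.40. *Mertk* differed by -1.20 (SE 0.34, adjusted p = 0.136) and *Spi1* by -1.001 (SE 0.18, adjusted p = 0.0526) on the log2 scale. *Itgam* differed by 0.31 (SE 0.10, adjusted p = 0.177), *Lyz2* by 0.15 (SE 0.10, adjusted p = 0.545) and *Cd68* by 0.16 (SE 0.18, adjusted p = 0.69), whose other probe was called higher (0.43, SE 0.060, adjusted p = 0.0332). The 5 dendritic cell markers were not well above background on any array, apart from *Zbtb46*. This gene was at least 5.65-fold higher with LPS (adjusted p = 0.00435) and at least 4.41-fold higher in LPS+USP7i than in untreated cells (adjusted p = 0.00806). Of the 3 markers of plasmacytoid dendritic cells, the main producers of interferon α, *Siglech* was bright by its lead probe. *Ccr9* and *Klk1* were well above background on only some arrays. The summed signal of these 3 on the log2 scale was 15.46 and 15.22 without treatment, 14.63 and 14.60 after LPS and 15.65 and 15.08 after LPS+USP7i. This sum is nearly all the lead probe of *Siglech*. The other probes of *Siglech* were dim, and only 1 of them was well above background on any array, LPS replicate 2. *Ccr9* was at least 5.43-fold higher with LPS (adjusted p = 0.0224), and *Klk1* was too dim to compare. The part of these cells in the results was not tested. Fewer cells of a type and less RNA per cell cannot be told apart in such samples.

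LPS was compared with untreated cells to ask how strongly the antiviral genes responded. Of the 10 genes, 9 were higher with LPS at an adjusted p under 0.05 by limma, against 7.98% of all gene names, and 0 were lower. These 9 also had both LPS arrays above both untreated arrays, which held for 31% of all gene names. The median log2 difference over the 10 genes was 4.78 (4.56 in replicate 1, 5.003 in replicate 2). Over all gene names the median was 0.0016. All 12 probes were well above background on every array, and 0 spots were saturated. When arrays were scaled to their 75th percentile instead, the median probe moved by 0.51 between LPS and untreated cells. Under that scaling 12184 gene names were higher and 4051 lower, instead of 2779 and 4446.

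**Figure D1:**
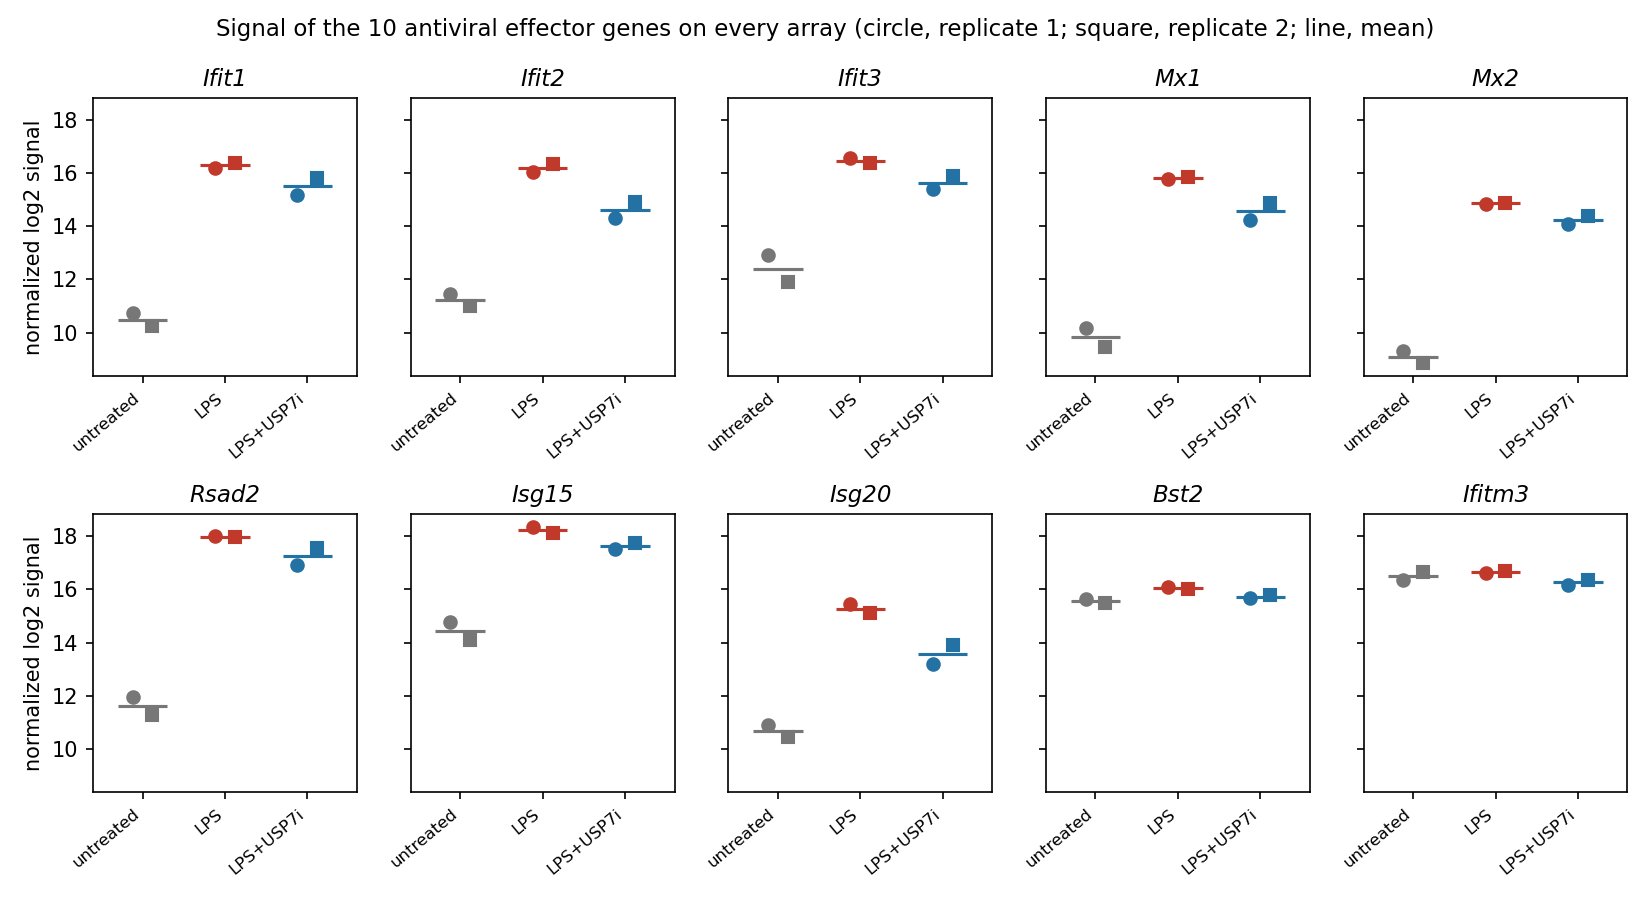
Quantile-normalized log2 signal (y axis) of the lead probe of each of the 10 genes on every array, by group (x axis); circles are replicate 1, squares replicate 2, and lines group means. In 8 genes the untreated arrays lie far below the others, whereas *Bst2* (15.49 to 16.11) and *Ifitm3* (16.18 to 16.68) were bright in every group.

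The IFIT proteins bind viral RNA whose 5′ end lacks the cap modifications of the host. For *Ifit1*, the normalized log2 signal was 10.73 and 10.24 without treatment, 16.21 and 16.39 after LPS and 15.20 and 15.81 after LPS+USP7i. Both LPS arrays were far above the untreated arrays, and both LPS+USP7i arrays lay between, nearer to LPS. LPS raised *Ifit1* 56.3-fold (log2 difference 5.82, SE 0.29, adjusted p = 0.00336, higher on both arrays).

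*Ifit2*, whose product binds AU-rich RNA, had a log2 signal of 11.47 and 10.995 without treatment, 16.03 and 16.35 after LPS and 14.32 and 14.90 after LPS+USP7i. The 3 groups formed separate levels with no overlap. The rise with LPS was 31.0-fold (log2 difference 4.96, SE 0.29, adjusted p = 0.00401). The human IFIT3 protein stabilizes IFIT1 on its RNA target, which was not examined in these mouse cells. The log2 signal of *Ifit3* was 12.90 and 11.89 without treatment, 16.57 and 16.37 after LPS and 15.39 and 15.91 after LPS+USP7i. The untreated replicates of *Ifit3* were further apart than those of *Ifit1* and *Ifit2*. LPS raised it 16.8-fold (log2 difference 4.07, SE 0.41, adjusted p = 0.00901). Without LPS replicate 1 the adjusted p was 0.0555, and over the 15 alternative settings it lay between 0.000367 and 0.0555. The probe of *Ifit3* may also bind the transcript of its near-identical neighbour *Ifit3b*, which was not tested, so its value is uncertain to that extent.

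MX proteins are dynamin-like GTPases that form rings around viral nucleoprotein, in the nucleus for mouse MX1 and in the cytoplasm for mouse MX2. *Mx1* had a log2 signal of 10.19 and 9.47 without treatment, 15.78 and 15.87 after LPS and 14.25 and 14.88 after LPS+USP7i. Its LPS replicates were nearly equal, and its LPS+USP7i arrays were both lower. LPS raised *Mx1* 64.1-fold (log2 difference 6.00, SE 0.34, adjusted p = 0.0039). *Mx2* had a log2 signal of 9.32 and 8.85 without treatment, 14.86 and 14.87 after LPS and 14.10 and 14.41 after LPS+USP7i. Here too the groups did not overlap. LPS raised *Mx2* 54.7-fold (log2 difference 5.77, SE 0.20, adjusted p = 0.00261). RefSeq lists both genes as transcribed pseudogenes in its C57BL/6J assembly, and the values given are therefore transcript levels.

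*Rsad2* encodes viperin, a radical SAM enzyme that makes a chain-terminating nucleotide. Its log2 signal was 11.95 and 11.27 without treatment, 17.99 and 17.98 after LPS and 16.94 and 17.57 after LPS+USP7i. The LPS arrays were almost identical, and the LPS+USP7i arrays were lower and further apart. LPS raised *Rsad2* 83.1-fold (log2 difference 6.38, SE 0.33, adjusted p = 0.00349), which was the largest rise of the 10 lead probes. With LPS the probe was brighter than 99.9% of all probes on the array.

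*Isg15* encodes a ubiquitin-like modifier that is attached to newly made proteins. Its lead probe had a log2 signal of 14.79 and 14.10 without treatment, 18.35 and 18.13 after LPS and 17.53 and 17.73 after LPS+USP7i. It was bright before LPS and still rose on both arrays. The rise was 13.9-fold (log2 difference 3.80, SE 0.27, adjusted p = 0.00502) with this probe and 21.3-fold with the other (log2 difference 4.41, SE 0.24, adjusted p = 0.00377). *Isg20* encodes an exonuclease that degrades single-stranded RNA. Its lead probe had a log2 signal of 10.90 and 10.45 without treatment, 15.45 and 15.10 after LPS and 13.20 and 13.90 after LPS+USP7i. In both *Isg20* probes the LPS+USP7i arrays lay clearly below the LPS arrays and clearly above the untreated arrays. The rise with LPS was 24.4-fold (log2 difference 4.61, SE 0.32, adjusted p = 0.00493) with the lead probe and 29.3-fold with the other (log2 difference 4.87, SE 0.31, adjusted p = 0.00434).

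*Bst2* encodes tetherin, a membrane protein that holds budding virions on the cell surface. Its log2 signal was 15.62 and 15.49 without treatment, 16.11 and 16.02 after LPS and 15.66 and 15.78 after LPS+USP7i. The gene was bright in every group, and the LPS arrays were slightly above the rest. The rise with LPS was 1.42-fold (log2 difference 0.51, SE 0.088, adjusted p = 0.031), and 9 of 15 alternative settings no longer passed the threshold, with adjusted p between 0.00563 and 0.132. It did not pass when any array was left out.

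*Ifitm3* encodes a membrane protein that hinders the fusion of viruses in endosomes. Its log2 signal was 16.36 and 16.66 without treatment, 16.62 and 16.68 after LPS and 16.18 and 16.36 after LPS+USP7i. The untreated and LPS arrays overlapped, and the level was above that of 99.5% of probes in LPS-treated cells. The difference between LPS and untreated cells was 0.14 on the log2 scale (SE 0.14, 95% CI -0.24 to 0.52, adjusted p = 0.618). It was called higher with 75th percentile scaling (0.75, adjusted p = 0.0178), where the median probe had moved by 0.51, and was -0.014 without untreated replicate 1. The 10 spots of its probe had an SD of at most 0.047 on the log2 scale on any array; the SD between the arrays of a group was 0.041 with LPS, 0.13 with LPS+USP7i and 0.22 in untreated cells.

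The strength of the LPS response separated the 10 genes by size: 8 lead probes rose by 3.80 to 6.38 on the log2 scale, and *Bst2* and *Ifitm3* differed by 0.51 and 0.14. The genes lay on 6 chromosomes. In the mm9 positions that the files give for the probes, *Ifit2*, *Ifit3* and *Ifit1* lay near each other on chromosome 19 (probe starts at 34650244, 34663105 and 34723796), with their relatives *Ifit1bl2*, *Ifit3b* and *Ifit1bl1* between the last 2, and *Mx1* and *Mx2* lay near each other on chromosome 16 (97668644 and 97782327). The lead probe of *Rsad2* started at 27127859 on chromosome 12, that of *Isg15* at 155573649 on chromosome 4, that of *Isg20* at 86065136 on chromosome 7, that of *Bst2* at 74058603 on chromosome 8 and that of *Ifitm3* at 148195591 on chromosome 7. Whether a probe lies in a coding exon or a UTR was not analysed here.

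Since most of these genes moved together, their promoters were searched for the letters of known interferon response elements. RefSeq promoter windows of 300 bases (GRCm38.p6; 250 bases before the transcription start to 50 after it) were matched for 8 of the 10 genes, all but *Mx1* and *Mx2*, and gave 11 windows. The core of the ISRE was taken as GAAANNGAAA on either strand. It occurred in 3.44% of 32851 promoter windows in the table, and in windows of 6 of the 8 genes, *Ifit1*, *Ifit3*, *Rsad2*, *Isg15*, *Bst2* and *Ifitm3*. In the first 5 of these it lay before the transcription start, and these stretches are shown, from 170 to 51 bases before the start, 5′ to 3′ on the strand of the gene, because they carry the shared element. Capitals mark the ISRE core or its reverse complement, and matches that overlap run together.
Ifit1 (chr19:34640719-34640838, plus strand): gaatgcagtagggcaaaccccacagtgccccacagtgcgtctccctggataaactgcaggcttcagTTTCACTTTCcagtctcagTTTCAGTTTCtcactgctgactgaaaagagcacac
Ifit3 (chr19:34583359-34583478, plus strand): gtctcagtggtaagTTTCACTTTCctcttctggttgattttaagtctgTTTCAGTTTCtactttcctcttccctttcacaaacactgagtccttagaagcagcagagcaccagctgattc
Rsad2 (chr12:26456503-26456622, minus strand): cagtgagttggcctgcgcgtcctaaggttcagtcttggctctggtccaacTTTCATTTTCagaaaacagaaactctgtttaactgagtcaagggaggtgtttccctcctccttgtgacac
Isg15 (chr4:156200869-156200988, minus strand): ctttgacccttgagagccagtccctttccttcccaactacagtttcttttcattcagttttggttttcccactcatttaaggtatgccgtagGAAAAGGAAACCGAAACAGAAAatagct
Bst2 (chr8:71537523-71537642, minus strand): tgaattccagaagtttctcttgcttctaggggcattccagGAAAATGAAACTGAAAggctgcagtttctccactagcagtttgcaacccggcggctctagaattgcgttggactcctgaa

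*Ifit1* and *Ifit3* each held 2 separate copies, which began 104 and 85 bases before the start in *Ifit1* and 156 and 122 bases before it in *Ifit3*. *Isg15* held 3 overlapping copies and *Bst2* 2; the rise with LPS was 13.9-fold in *Isg15* and 1.42-fold in *Bst2*. In *Ifitm3* both copies lay after the start, beginning at bases 3 and 20 of the transcribed part. The 2 windows of *Ifit2* and the 3 windows of *Isg20* held no such match, which says only that these letters are not in those windows. The core of the gamma interferon activation site (GAS), TTCNNNGAA, was found in 8.3% of all windows and in *Ifit2*, *Isg20*, *Bst2* and *Ifitm3*. In *Bst2* it overlapped the first ISRE core, beginning 136 bases before the start, where the ISRE core began at 130. A match is a description of the letters and not a measured binding site.

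**Figure D2:**
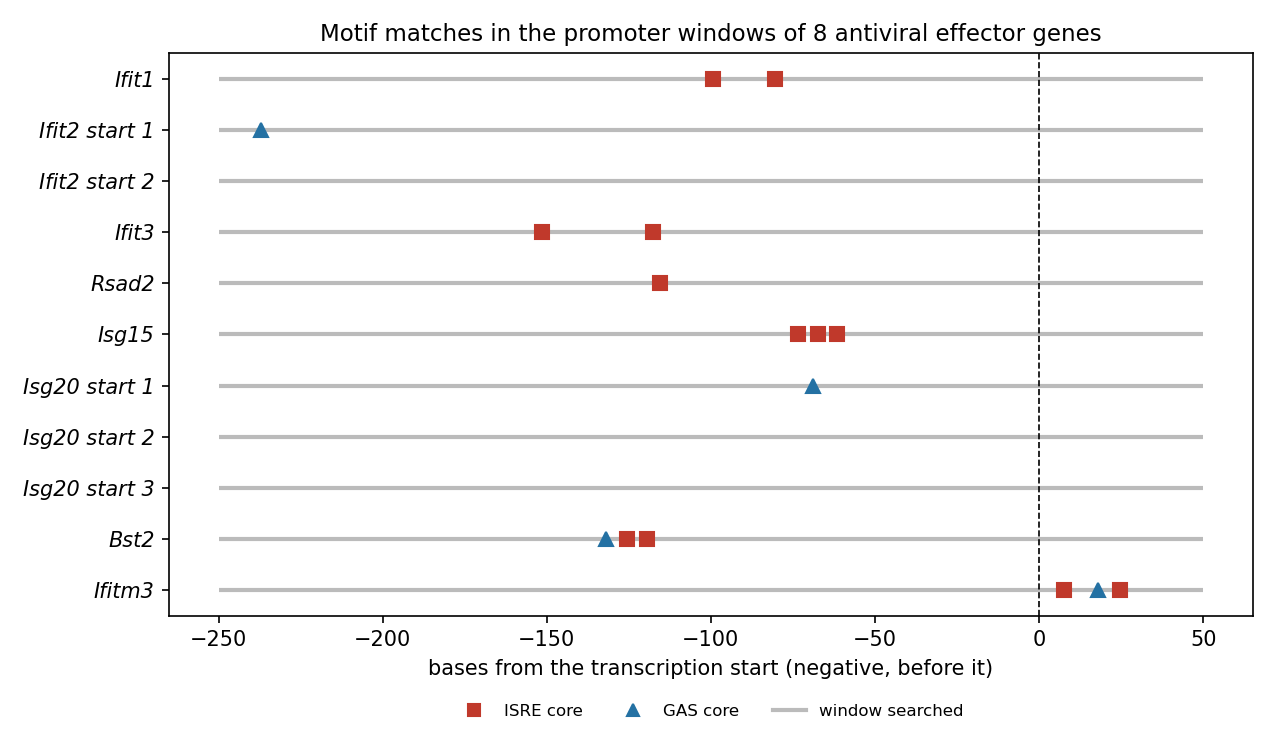
Positions of ISRE core (squares) and GAS core (triangles) matches in the RefSeq promoter windows of 8 genes; the x axis gives bases from the transcription start, and grey lines are the windows searched. ISRE cores begin between 156 and 66 bases before the start in *Ifit1*, *Ifit3*, *Rsad2*, *Isg15* and *Bst2*, and after the start in *Ifitm3*.

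LPS+USP7i was then compared with LPS to ask how levels differed with the inhibitor. No group received the inhibitor without LPS. A change in the LPS response and a change independent of LPS therefore cannot be told apart. All 10 lead probes had a lower mean with the inhibitor, and in all 10 both LPS+USP7i arrays lay below both LPS arrays, which held for 25.3% of all gene names. The calls were weaker than this pattern. By limma, 0 of 10 lead probes were lower at an adjusted p under 0.05, against 4.28% of all gene names, and 0 were higher, against 5.51%. At an unadjusted p under 0.05, 5 of 10 were lower (*Ifit2*, *Mx1*, *Mx2*, *Isg20* and *Bst2*), as were 11.7% of all gene names. This unadjusted count moved with the setting. It was 10 after normexp background correction and fell when either LPS array or LPS+USP7i replicate 1 was left out. The median log2 difference over the 10 genes was -0.76 (-1.03 in replicate 1, -0.46 in replicate 2; -1.07 to -0.50 over the 15 alternatives), against 0.00077 over all gene names.

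The count of calls moved with the processing. It was 4 of 10 after normexp background correction (*Ifit2*, *Mx1*, *Isg20* and *Bst2*), 3 with dim probes left out (*Ifit2*, *Mx1* and *Isg20*), 2 with the deposited log2 table, with a trended prior and with the mean over the probes of a gene (*Ifit2* and *Isg20* each time), and 1 with 75th percentile scaling (*Isg20*). All other alternatives gave 0. The lower calls over all gene names moved as well, from 1490 of 34844 to 2379 with normexp, 1244 with the deposited table, 1580 with a trended prior, 1623 with the mean over probes and 1422 with 75th percentile scaling. With dim probes left out they were 2366 of 18343. No member had a positive difference under any of the 15 alternatives. With only the LPS and LPS+USP7i arrays in the fit, or without either untreated array, limma called 0 of all gene names in this comparison, so those settings could not have called a member.

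The largest differences were in *Isg20* and *Ifit2*. The lead probe of *Isg20* was 3.31-fold lower with the inhibitor (log2 difference -1.73, SE 0.32, 95% CI -2.61 to -0.84, adjusted p = 0.0575). Its other probe was 3.77-fold lower and passed the threshold (log2 difference -1.91, SE 0.31, adjusted p = 0.0434), the only one of the 12 probes to do so. *Ifit2* was 2.98-fold lower (log2 difference -1.57, SE 0.29, 95% CI -2.38 to -0.77, adjusted p = 0.0569). The signal of *Ifit2* on the LPS+USP7i arrays thus stood at 33.6% of that on the LPS arrays, and that of *Isg20* at 30.2%. Over the alternatives, 6 of 15 settings put the lead probe of *Isg20* past the threshold (adjusted p 0.00672 to 0.197) and 5 of 15 did so for *Ifit2* (0.00664 to 0.185).

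*Mx1*, *Ifit3*, *Ifit1* and *Rsad2* came next, none of them past the threshold. The log2 difference of *Mx1* was -1.26 (SE 0.34, 95% CI -2.20 to -0.32, adjusted p = 0.123), and it was -1.53 in replicate 1 and -0.99 in replicate 2. That of *Ifit3* was -0.82 (SE 0.41, adjusted p = 0.374) and that of *Ifit1* -0.79 (SE 0.29, adjusted p = 0.223; -1.10 to -0.48 over the alternatives). *Rsad2* had a log2 difference of -0.73 (SE 0.33, adjusted p = 0.325), which was -1.06 in replicate 1 and -0.41 in replicate 2. For each of these 4 genes the 2 LPS+USP7i arrays were further apart than the 2 LPS arrays, and replicate 1 was the lower of them.

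The remaining genes differed least. Both *Isg15* probes gave nearly the same value, -0.61 with the lead probe (SE 0.27, adjusted p = 0.308) and -0.68 with the other (SE 0.24, adjusted p = 0.215) on the log2 scale. *Mx2*, with a log2 difference of -0.61 (SE 0.20, adjusted p = 0.19), stood at 65.7% of its LPS signal. For *Ifitm3* the log2 difference was -0.38 (SE 0.14, adjusted p = 0.221), and for *Bst2* it was -0.34 (SE 0.088, adjusted p = 0.112). These 2 genes, with the smallest differences between LPS and untreated cells, were thus also lower on both LPS+USP7i arrays than on both LPS arrays.

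**Figure D3:**
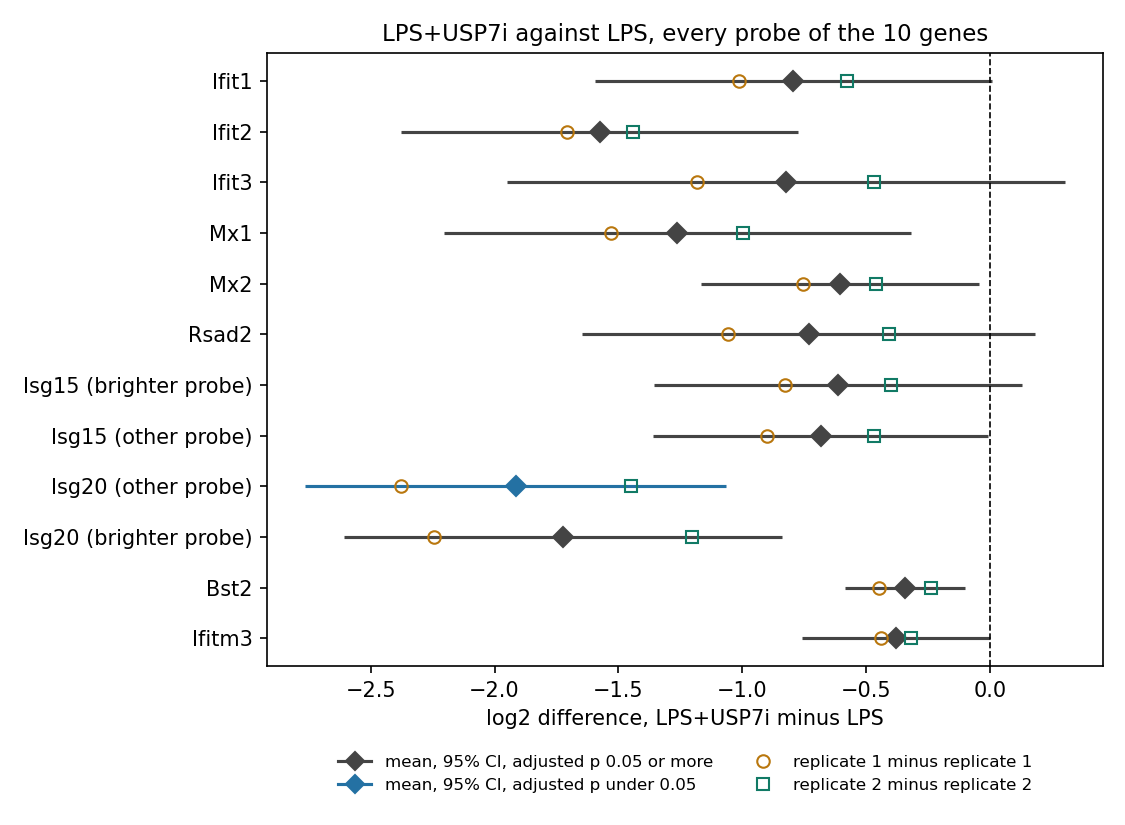
Log2 difference between LPS+USP7i and LPS (x axis) for each of the 12 probes of the 10 genes (y axis); diamonds are differences of group means with 95% CI from limma, open circles and squares the differences between arrays of the same replicate number. All 12 means are below 0, from -0.34 in *Bst2* to -1.91 in the other *Isg20* probe, the only one with an adjusted p under 0.05.

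Compared with untreated cells, LPS+USP7i cells still had high levels of the antiviral transcripts. Of the 10 genes, 8 were higher at an adjusted p under 0.05 by limma, against 6.15% of all gene names, and 9 had both LPS+USP7i arrays above both untreated arrays, against 28.9%. The median log2 difference was 3.32 over the 10 genes (2.80 in replicate 1, 3.96 in replicate 2) and -0.0021 over all gene names. The count fell whichever array was left out, which left 1 array in its group, and so did the higher calls over all gene names. *Ifit2* missed the threshold in 1 of the 15 alternatives (log2 difference 3.09 to 3.67 over them) and *Isg20* in 2 (2.53 to 3.23). Over the 15 alternatives *Ifit3* missed the threshold in this comparison in 6, with adjusted p up to 0.075. The called differences ran from 2.88 for *Isg20* (SE 0.32, adjusted p = 0.0152) to 5.64 for *Rsad2* (SE 0.33, adjusted p = 0.00636) on the log2 scale. With 75th percentile scaling, 12216 gene names were higher and 3363 lower in this comparison, instead of 2144 and 3040.

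*Bst2* and *Ifitm3* were not among the 8. *Bst2* was 0.17 above untreated cells on the log2 scale (SE 0.088, adjusted p = 0.387), although with 75th percentile scaling the difference was 0.58 and passed (adjusted p = 0.0226). *Ifitm3* was -0.24 (SE 0.14, adjusted p = 0.436), and this turned to 0.17 with 75th percentile scaling, where the median probe moved by 0.55.

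The share of the log2 rise with LPS that was kept with the inhibitor differed among the 9 genes with a called rise. It was 89.5% for *Mx2*, 88.5% for *Rsad2* and 86.4% for *Ifit1*. It was 83.9% for *Isg15*, 79.8% for *Ifit3* and 79.0% for *Mx1*. *Ifit2* kept 68.2% and *Isg20* 62.5%. Shares were not compared by a test, and they overlapped between genes by replicate, such as 62.5% and 73.1% for *Ifit2* and 67.8% and 89.6% for *Ifit3*. *Bst2* kept 32.6% of its small rise, with 7.70% in replicate 1 and 55.3% in replicate 2. With 75th percentile scaling the rise of *Bst2* was 1.05 instead of 0.51 and its difference between LPS+USP7i and untreated cells 0.58 instead of 0.17, so that its share depends on the scaling. In all 9 genes the share was smaller in replicate 1 than in replicate 2, for example 50.7% and 74.2% for *Isg20*. These shares are descriptions on the log2 scale, and both differences in each share use the same untreated arrays, which had no inhibitor.

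The family relatives of the IFIT and IFITM genes were read as well. Of 8 relatives, 3 were higher with LPS at an adjusted p under 0.05 (7.98% of all gene names) and 0 were lower (12.8%), and 1 was lower in LPS+USP7i than in LPS (4.28%). That gene was *Ifit1bl2*, named *Gm14446* in the files, with a probe near that of *Ifit3*. Its log2 signal was 6.49 and 5.84 without treatment, 12.99 and 12.98 after LPS and 9.98 and 10.92 after LPS+USP7i. The inhibitor-treated arrays lay between the other groups and apart from each other. *Ifit1bl2* rose 113-fold with LPS (log2 difference 6.82, SE 0.41, adjusted p = 0.00408) and was 5.80-fold lower with the inhibitor (log2 difference -2.54, SE 0.41, adjusted p = 0.043). The lead probes of all 8 relatives had both LPS+USP7i arrays below both LPS arrays, against 25.3% of all gene names, although the signal of *Ifitm5* did not exceed background clearly on any of them. The probes of *Ifitm7* disagreed, with 1.14 with LPS and -0.81 with the inhibitor for the lead probe and -0.46 and 0.40 for the other on the log2 scale.

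The route from TLR4 to IRF3 was examined for the same arrays. Of its 10 genes, 5 were higher and 2 lower with LPS, against 7.98% and 12.8% of all gene names. In LPS+USP7i against LPS, 3 were lower and 1 was higher, against 4.28% and 5.51%. The LPS calls depended on the setting, since *Traf3* missed the threshold in 10 of 15 alternatives, *Irf7* in 7, *Tlr4* in 6 and *Ticam2* in 5. *Tlr4* itself was lower with LPS (log2 difference -0.80, SE 0.14, adjusted p = 0.0305), and its difference between LPS+USP7i and LPS was 0.51 (SE 0.14, adjusted p = 0.124). *Cd14*, which hands LPS to the receptor, rose with LPS (log2 difference 1.69, SE 0.12, adjusted p = 0.00518) and was lower with the inhibitor (log2 difference -1.31, SE 0.12, adjusted p = 0.0184).

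*Ticam2*, the gene of the adaptor TRAM, had a log2 signal of 5.74 and 5.48 without treatment, 7.17 and 7.34 after LPS and 3.34 and 4.19 after LPS+USP7i. On the LPS+USP7i arrays it was not well above background, so that only a bound can be given. With this processing the signal with LPS was at least 7.87-fold higher than with LPS+USP7i (adjusted p = 0.0183). For this bound a dim array was given its measured value or the dimmest value counted as above background there, whichever was larger. The size depended on the processing, since the log2 difference was -3.49 here and -1.53 after normexp background correction. *Traf3*, a ubiquitin ligase that links the adaptors to TBK1, was the only gene of this route called higher with the inhibitor (log2 difference 1.49, SE 0.097, adjusted p = 0.0126). *Ikbke*, the gene of a kinase related to TBK1, rose with LPS by 2.61 (SE 0.21, adjusted p = 0.00616) and was lower with the inhibitor (-1.64, SE 0.21, adjusted p = 0.0289) on the log2 scale. *Irf3* differed by -0.30 (SE 0.14, adjusted p = 0.35) and *Irf7*, its interferon-induced relative, by -1.09 (SE 0.34, adjusted p = 0.162) between LPS+USP7i and LPS.

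Interferon β, which links both stages of this circuit, was next. *Ifnb1* had a log2 signal of 4.80 and 4.34 without treatment, 12.01 and 12.85 after LPS and 12.87 and 12.52 after LPS+USP7i. The untreated arrays were near background (1 of 2 was well above it), and the LPS and LPS+USP7i arrays overlapped. *Ifnb1* rose with LPS (log2 difference 7.86, SE 0.36, adjusted p = 0.00317). With untreated arrays this dim the size of the rise is uncertain, and it was 5.80 after normexp background correction. Between LPS+USP7i and LPS it differed by 0.26 (SE 0.36, 95% CI -0.73 to 1.26, adjusted p = 0.766), an interval that leaves room for a change in either direction. Whether *Ifnb1* and the antiviral genes differed in their response to the inhibitor was not tested. No array showed *Ifna4* well above background.

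Of the 8 genes read from interferon to ISGF3, 3 were higher with LPS (7.98% of all gene names) and 0 lower (12.8%), and with the inhibitor 2 were lower than in LPS (4.28%) and 0 higher (5.51%). The 2 were *Tyk2* and *Ifnar1*. *Tyk2*, a kinase bound to the interferon receptor, had a log2 signal of 10.61 and 10.60 without treatment, 11.65 and 11.53 after LPS and 9.81 and 10.03 after LPS+USP7i. The inhibitor-treated arrays were thus the lowest of the 6. The difference between LPS+USP7i and LPS was -1.67 on the log2 scale (SE 0.10, adjusted p = 0.0121). *Ifnar1*, the gene of a receptor chain, was also lower with all 3 of its probes, by the lead probe with a log2 difference of -0.97 (SE 0.15, adjusted p = 0.0397). In LPS against untreated cells its probes disagreed, with -0.17 for the lead probe and 1.63 and 1.83 for the others.

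The genes of the ISGF3 subunits STAT2 and IRF9 did not pass in this comparison. *Stat2* had a log2 difference of -0.56 (SE 0.13, adjusted p = 0.0943) between LPS+USP7i and LPS, and *Irf9* one of 0.075 (SE 0.12, adjusted p = 0.807), which was -0.12 with 75th percentile scaling.

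ISG15 is joined to proteins by the enzymes UBA7, UBE2L6 and HERC6 and removed by USP18, which also restrains signalling at the interferon receptor. Of the 5 genes on this list, 3 were higher and 0 lower with LPS, against 7.98% and 12.8% of all gene names. In LPS+USP7i against LPS, 3 were lower and 1 higher, against 4.28% and 5.51%. The log2 signal of *Usp18* was 12.72 and 12.18 without treatment, 16.15 and 15.91 after LPS and 14.17 and 14.40 after LPS+USP7i. The 3 groups formed separate levels. *Usp18* rose 11.98-fold with LPS (log2 difference 3.58, SE 0.23, adjusted p = 0.00438) and was 3.36-fold lower with the inhibitor (log2 difference -1.75, SE 0.23, adjusted p = 0.0298). *Uba7* was lower by 2.26-fold (log2 difference -1.18, SE 0.15, adjusted p = 0.0292) and *Herc6* by 2.71-fold (log2 difference -1.44, SE 0.24, adjusted p = 0.0481). The probes of *Trim25*, a ubiquitin ligase that interferon induces, disagreed: its lead probe was higher with the inhibitor (log2 difference 0.55, SE 0.058, adjusted p = 0.0217) and the other lower (-0.83, SE 0.13, adjusted p = 0.0424).

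Among 5 genes that restrain interferon signalling, *Usp18* included, 4 were higher and 0 lower with LPS (7.98% and 12.8% of all gene names), and 3 were lower and 0 higher in LPS+USP7i than in LPS (4.28% and 5.51%). Besides *Usp18* these were the phosphatase genes *Ptpn6* (log2 difference -1.48, SE 0.14, adjusted p = 0.0181) and *Ptpn2* (log2 difference -0.61, SE 0.098, adjusted p = 0.0436). All 3 of these lists had a lower median with the inhibitor, -0.24 from interferon to ISGF3, -1.18 for ISG15 conjugation and -1.56 for restraint, and the TLR4 to IRF3 list had -0.27. The calls of these pathway genes in LPS+USP7i against LPS depended on the setting. *Tyk2* and *Traf3* missed the threshold in 3 of 15 alternatives, *Cd14*, *Ticam2* and *Ptpn6* in 5, and *Ikbke*, *Ifnar1*, *Uba7* and *Herc6* in 7. *Usp18* missed it in 8, and *Trim25* and *Ptpn2* in 10, and the relative *Ifit1bl2* in 7. In 3 of these settings, the fit of both groups alone and those without either untreated array, 0 of all gene names were called.

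**Figure D4:**
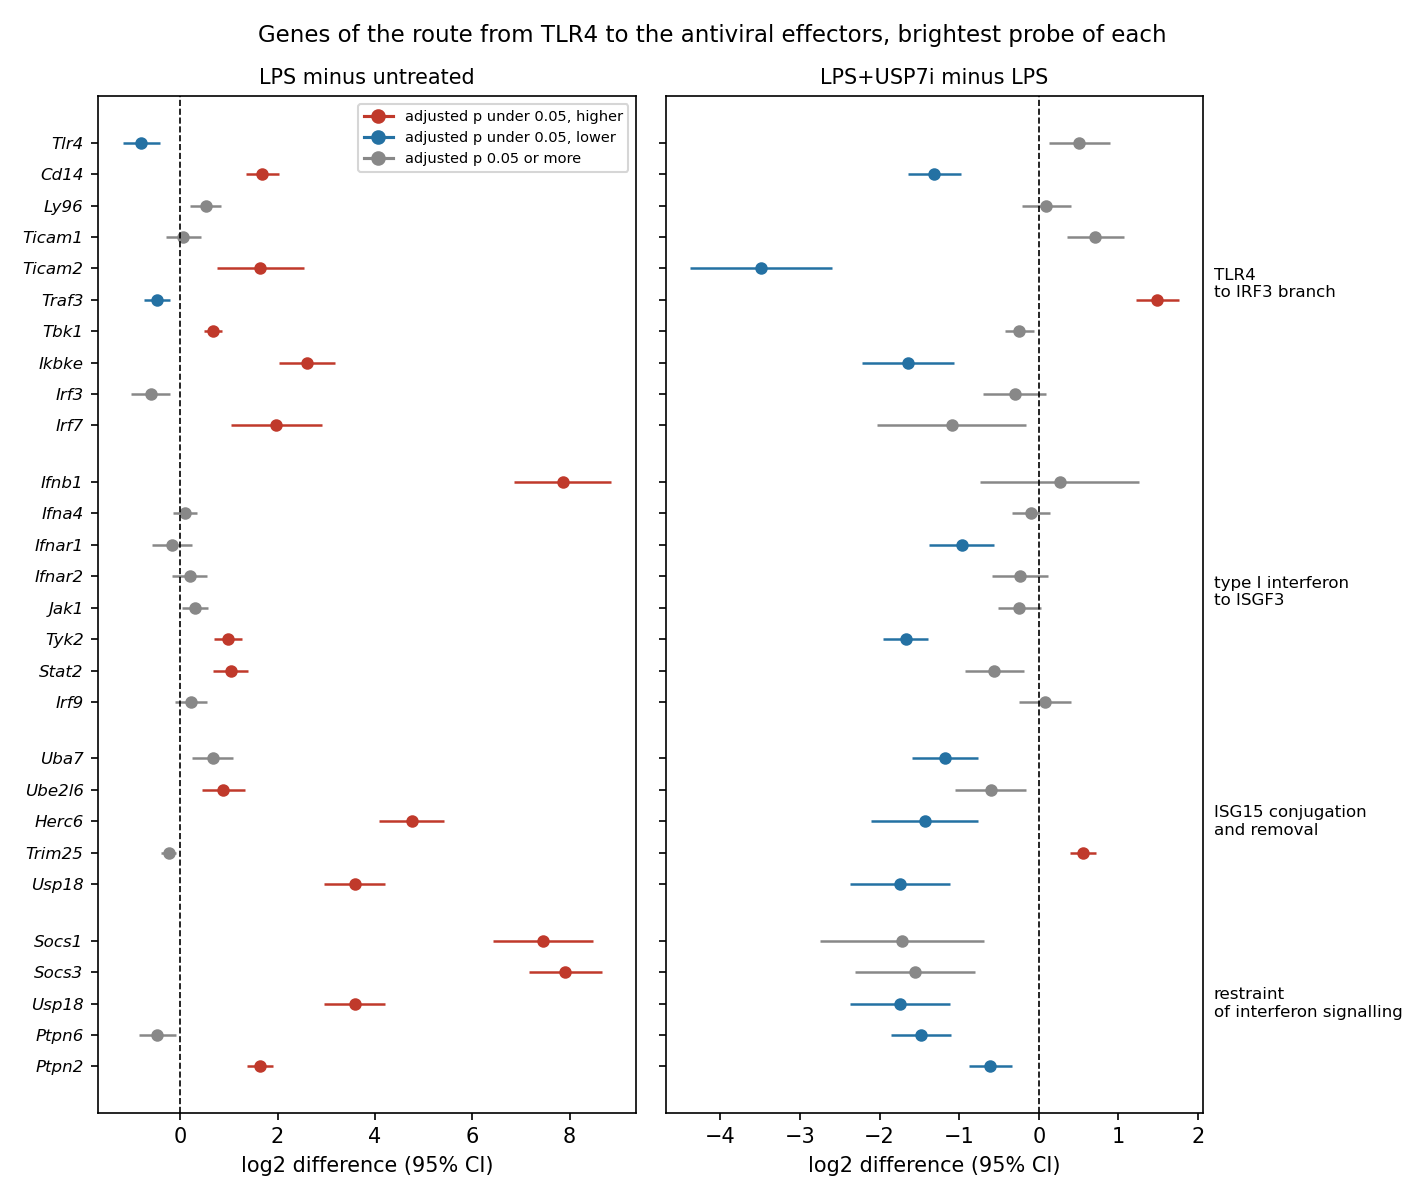
Log2 differences with 95% CI (x axis) of the lead probe of each pathway gene (y axis, grouped by list), LPS minus untreated in one panel and LPS+USP7i minus LPS in the other; red and blue mark adjusted p under 0.05, higher and lower. *Ifnb1* is at 7.86 with LPS and 0.26 with the inhibitor. *Ticam2* is drawn at its measured difference of -3.49, although it was not well above background with the inhibitor. For this gene only a bound can be given, at least 7.87-fold higher with LPS than with LPS+USP7i.

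The pattern over the 6 arrays was shared by most of the antiviral genes. The correlation of each with the mean of the other 9 was 0.978 to 0.99986 for the 8 strongly induced genes, 0.854 for *Bst2* and 0.017 for *Ifitm3*, as a description over 6 arrays in 3 groups. Outside the list, the genes most like the mean of the 10 were sought among 1431 bright and variable genes. *Gbp5*, an interferon-induced GTPase, came first (r = 0.9997), followed by *Cmpk2*, the neighbour of *Rsad2* (0.9995), *Il6* (0.9995), *Socs3* (0.9989) and *Nfkbie* (0.9988). Their rises with LPS were 9.002, 6.63, 11.86, 7.91 and 4.35 on the log2 scale, and their differences between LPS+USP7i and LPS were -1.83, -1.51, -2.55, -1.56 and -0.79. The high r is not particular to these 5, since 205 of the 1431 genes had r above 0.95.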

How the data were processed

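The authors deposited scanner files with background-corrected spot intensities (Agilent Feature Extraction 10.7.3.1, 1 colour, Cy3, probe positions on mm9) and a table of log2 values that, per the methods, was made with limma and quantile normalization. Its centring is not stated, and it correlated with the log2 processed signal at r = 0.985. Here log2 processed signals of 59305 non-control spots per array were quantile-normalized, outlier spots (119 to 172 per array) were removed, and spots of a probe were averaged. One linear model over the 3 groups was fitted to all 6 arrays with limma 3.58.1 (lmFit, eBayes) in R 4.3.3. P-values were adjusted by Benjamini-Hochberg over 55680 probes, and a gene was called at an adjusted p under 0.05. Differences carry SE or 95% CI from that model, and 2 arrays per group limit the precision. An exact permutation test of 2 against 2 arrays cannot go below p = 0.333 and was not used. The fit was tested on simulated data.

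All probes of the 10 genes are reported. Pathway genes and relatives are named if a lead probe passed in LPS+USP7i against LPS, together with *Ifnb1*, *Irf3*, *Irf7*, *Stat2*, *Irf9*, *Tlr4* and *Usp18*, or where a gene was dim (*Ifna4*, *Ifitm5*) or its probes disagreed (*Ifitm7*), and *Ifit3b* and *Ifit1bl1* for their position only. Markers are named as examples of their list. The 5 most similar genes have the highest Pearson correlation with the mean of the centred lead probes, among RefSeq-listed genes well above background on every array with a log2 range of at least 2. Marker lists for macrophages, dendritic cells, neutrophils, B cells, T and NK cells, erythroid cells, fibroblasts and endothelium, and genes used by every cell, were also read. Of the planned lists, 1 pathway gene and 1 marker are not reported here. The members and lists were chosen with earlier results of these data known. Alternatives were another scaling, normexp (offset 50), the deposited log2 table, dim probes left out, outlier spots kept, 2-group fits, a trended prior, a replicate block, each array left out and the mean over a gene's probes.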

Additional observations from a re-analysis of the deposited data

How the results depend on the processing

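Over the 15 alternatives, 448 of 450 log2 differences of the 10 genes kept their direction and 413 also their side of the threshold. The 2 that turned were *Ifitm3* in LPS+USP7i against untreated cells with 75th percentile scaling (0.17) and *Ifitm3* in LPS against untreated cells without untreated replicate 1 (-0.014; -0.014 to 0.29 with single arrays left out). The number of genes called lower in LPS+USP7i than in LPS was 0, and became 1 with 75th percentile scaling, 4 with normexp, 3 with dim probes left out (fewer probes tested), and 2 with the deposited log2 table, a trended prior or the mean over probes. Over all gene names lower calls went from 1490 to 1422, 2379, 2366 (of 18343), 1244, 1580 and 1623 in that order. Why the count of members moved was not tested. With single arrays left out it was 0 each time, the count higher in LPS than untreated was 7 to 8, and that higher in LPS+USP7i than untreated was 5 to 7. In each of these fits, which left 1 array in a group, the matching calls over all gene names were also fewer than with all arrays. A smaller count of members there is thus not particular to the 10 genes. The median log2 difference with LPS moved from 4.78 to 5.12 with 75th percentile scaling. Over all alternatives the 3 medians were 4.55 to 5.12 with LPS, -1.07 to -0.50 with the inhibitor and 2.99 to 3.69 against untreated cells.

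For the named pathway genes, alternatives added after seeing the data kept the direction of 562 of 570 differences. With 75th percentile scaling the LPS difference turned in *Ifnar1* (0.17), *Trim25* (0.37) and *Ptpn6* (0.077), and the inhibitor difference in *Irf9* (-0.12). With the mean over probes, the LPS difference turned in *Ifnar1* (1.10) and *Trim25* (0.41) and the inhibitor difference in *Trim25* (-0.14), whose probes disagree. With single arrays left out the inhibitor difference of *Ifnb1* was -0.15 (without LPS replicate 1) to 0.68.

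With the replicate number as a block, 8 of 10 genes were called higher with LPS, since *Bst2* no longer passed. With the inhibitor 0 were lower than in LPS and 8 higher than untreated, and the 3 medians were 4.78, -0.76 and 3.32. Of all 34844 gene names, the block gave 2936 higher with LPS, 1125 lower in LPS+USP7i than in LPS and 2213 higher in LPS+USP7i than untreated. Samples of the same replicate number share that number and the first number of their slide position. Replicate differences correlated between groups over probes at 0.468, 0.398 and 0.422. With an array left out, the lone sample of its group is assumed to vary like the others. Signal over background did not limit the 12 probes.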

Other observations

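The other marker lists were also read as summed signals on the log2 scale. Of 8 neutrophil markers, 7 were well above background on every array. Their sum was 13.18 and 13.64 without treatment, 13.09 and 13.98 after LPS and 13.48 and 13.97 after LPS+USP7i, higher on replicate 2 in each group. The genes of this list did not move together. *S100a9* had a log2 signal of 7.68 and 10.72 without treatment, 9.54 and 12.38 after LPS and 8.35 and 11.57 after LPS+USP7i, so that the replicates differed more than the groups. *Mpo* was instead higher on replicate 1, at 8.39 and 6.45 without treatment, 8.65 and 6.67 after LPS and 6.49 and 4.84 after LPS+USP7i, as was *Ly6g* in each group. The sum of 5 B cell markers, 2 of which were well above background on every array, went the other way, at 10.05 and 9.38 without treatment, 10.17 and 9.06 after LPS and 9.48 and 8.30 after LPS+USP7i. *Pax5*, among them, was well above background only on the LPS+USP7i arrays (adjusted p = 0.0244 against LPS). Of 5 T and NK cell markers only *Cd3e* was well above background on every array, and the sum lay between 9.27 and 9.63. Erythroid markers (3, sum 4.73 to 5.39) and those of fibroblasts and endothelium (5, sum 6.03 to 6.50) were dim, with *Alas2*, *Col1a1* and *Pdgfra* not well above background on any array. The dendritic cell markers summed to 5.31 and 5.52 without treatment, 6.95 and 7.03 after LPS and 6.39 and 6.56 after LPS+USP7i. The part of these lists in the results was not tested.

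Of 8 genes used by every cell, 3 were lower with LPS (*Gapdh*, *Hprt* and *Rpl13a*, by -0.35, -0.70 and -0.46 on the log2 scale). This compares with 12.8% of all gene names, and 0 were higher (7.98%). In LPS+USP7i against LPS 0 were called lower and 0 higher by limma, against 4.28% and 5.51% of all gene names. At an unadjusted p under 0.05, 2 of these 8 were higher in that comparison and 0 lower, against 14.3% and 11.7% of all gene names. The median log2 difference of the 8 between LPS+USP7i and LPS was 0.12, with 0.30 for *Gapdh*, 0.28 for *Hprt*, 0.18 for *Ppia*, 0.17 for *Rpl13a* and -0.086 for *Actb*.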
